A study of Mus musculus with 2 samples.

Results

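The genes described here encode the enzymes that make and use glutathione and that remove superoxide and peroxides, with the transcription factor NRF2 that drives many of them. They were chosen by name: the glutathione transferase (Gst), glutathione peroxidase (Gpx), peroxiredoxin (Prdx), thioredoxin (Txn1, Txn2) and thioredoxin reductase (Txnrd) genes, and 16 single genes of the same pathway such as Nqo1, Hmox1, Gclm and Sod3. Reads were found for 53 of these genes, among 17431 genes with a read in all. Poly(A) RNA of 2 dermal cultures from BALB/c mice was sequenced, 1 library per cell type. The skin-derived precursor (SKP) library came from mice at postnatal day 4, and its cells were grown in DMEM and F12 medium to which the growth factors FGF2 (40 ng/ml) and EGF (20 ng/ml) and 2% of the supplement B27 were added. The fibroblast library came from mice at postnatal day 3, and its cells were grown in DMEM with 10% fetal bovine serum. SKPs are multipotent dermal cells obtained as cultures that grow in those factors. Cell type, medium, growth factors and age differed together and cannot be told apart, and with 1 library per cell type no difference below has a replicate check.

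Glutathione is a small peptide whose thiol group reduces peroxides and is attached to reactive compounds, and it is made from glutamate, cysteine and glycine by glutamate-cysteine ligase and glutathione synthetase. Glutathione peroxidases and peroxiredoxins reduce peroxides, and glutathione reductase and thioredoxin reductases restore the thiols with NADPH. NRF2, which KEAP1 holds at a low level in unstressed cells, binds antioxidant response elements and raises transcription of many of these genes. In skin these enzymes meet oxidants from light, inflammation and wound repair.

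The SKP library held 22981183 reads, of which 85.13% were mapped, and the fibroblast library 23374716 reads, of which 81.65% were mapped. Levels are RPKM, a read count divided by gene length and by the library's counted reads, on which 1 read per kilobase stands for 0.0528 RPKM in SKPs and 0.0543 RPKM in fibroblasts. Dermal fibroblast markers were abundant in both libraries, with 7 genes that summed to 8761 RPKM in the SKP library and 10155 in the fibroblast library. They were not alike one by one, since Lum (895 RPKM in SKPs against 17.1 in fibroblasts) and Dcn were past 2-fold in favour of SKPs, and Col1a1 and Thy1 past it in favour of fibroblasts. The 9 SKP and neural crest markers summed to 146 RPKM in the SKP library and 150 in the fibroblast library, with Nes, Sox2, Msx1 and Tfap2a past 2-fold in favour of SKPs and Sox10 past it in favour of fibroblasts. Other cell types left more of their marker RNA among the SKPs. The 7 adipocyte markers summed to 378 RPKM there against 23.2 in fibroblasts, 8 mast cell markers to 83.2 against 0.241, 8 keratinocyte markers to 30.2 against 2.51 and 8 leukocyte markers to 29.4 against 4.40. Lep, Retn, Cpa3, Mcpt4, Fcer1a, Ivl, Krt1 and Emr1 had 0 fibroblast reads. Of the globin genes of red blood cells, which are rich in catalase, Hba-a1 had 1 read in SKPs and 0 in fibroblasts, and Hbb-b1 and Hbb-b2 had none in either. The part of the other cell types in the differences below was not tested, and in whole cultures fewer cells of a type and less RNA per cell cannot be told apart.

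Of the expressed antioxidant genes 65.2% were within 1.5-fold in SKPs and fibroblasts, against 66.7% of all expressed genes, so the set was about as steady as the rest of the transcriptome. The widest differences were those of Sod3, Gclm, Gstm6, Gsr and Gsta4. Genes counted as expressed if 1 of the libraries gave them 20 or more reads and an RPKM of at least 1, which held for 46 of the 53. All but 1 of them, Gstm6, passed in both libraries. Calls of higher or lower required a 2-fold or greater ratio whose 95% exact counting interval did not include equality. Called higher in the SKP library were 4 genes: Gsta4, Srxn1, Sod2 and Nfe2l2. Called lower were 5 genes: Sod3, Gclm, Gstm6, Gsr and Gsto2. The calls took in 19.6% of the expressed members, against 18.5% of all 12053 expressed genes, so their number was near the background. By direction, 8.70% of members were higher against 12.1% of all expressed genes, and 10.9% of members were lower against 6.41%. Log2 ratios, SKP over fibroblast, had a median of -0.05 over the members and of -0.01 over all expressed genes. The same 9 genes, and no other member, stood in the authors' deposited table of filtered differences, which holds 2659 genes. Its ratios come from the same reads and its smallest absolute log2 ratio was 1.00, the same 2-fold limit. The match is therefore no independent check. All intervals cover counting error only.

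Called genes ran from Gstm6 at 0.687 RPKM in SKPs and 2.17 in fibroblasts to Nfe2l2 at 97.6 and 48.8. Of the 12 members over 100 RPKM in either library 0 were called, against 21.3% of all genes over 100 RPKM, and the 12 genes are few. Gsto1, an omega-class transferase that reduces mixed disulfides, was the most abundant member in both libraries at 481 RPKM in SKPs and 582 in fibroblasts. Next in the SKP library came Prdx1 (249 RPKM), Gpx4 (242) and Prdx2 (222), and next in the fibroblast library came Gpx4 (258), Prdx2 (226), Hmox1 (224) and Prdx1 (219). All members together took 0.398% of the counted reads of the SKP library and 0.426% of those of the fibroblast library. Across the 46 expressed members Spearman's rho between the libraries was 0.943, against 0.891 across all expressed genes, values given as a description because genes are not replicates.

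**Figure D1:**
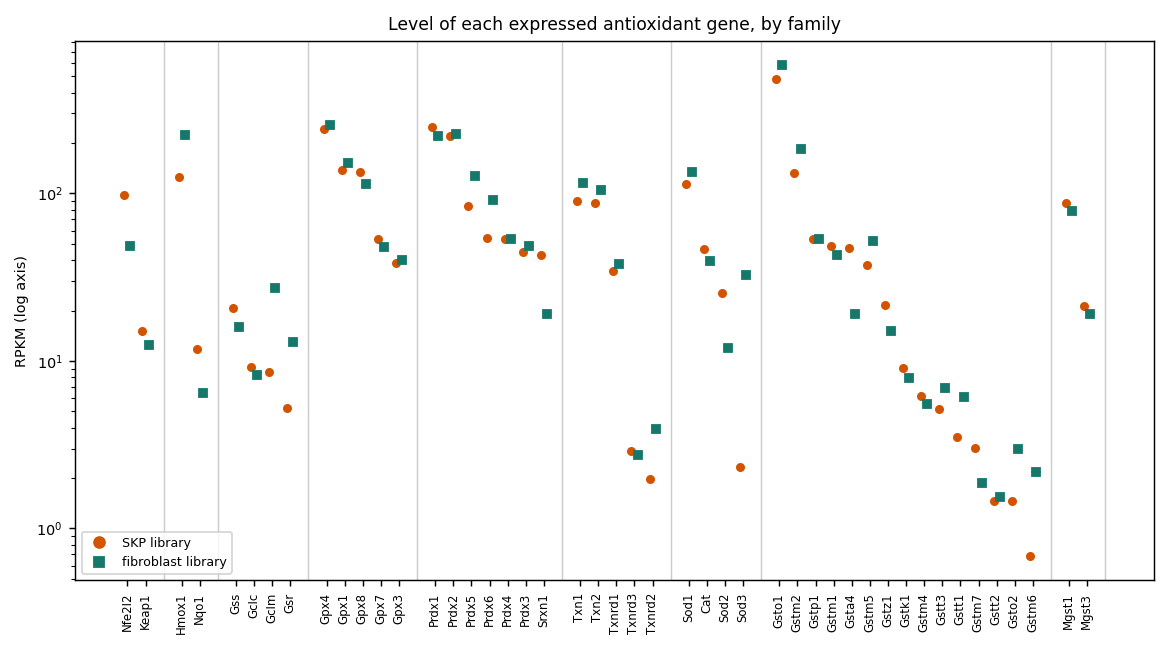
Level of each of the 46 expressed genes in RPKM on a log axis, SKP library as circles and fibroblast library as squares, grouped by family from NRF2 on the left to microsomal transferases on the right. The pair of points nearly coincides for most genes, and the gap is widest for Sod3, at 2.32 RPKM in the SKP library and 32.4 in the fibroblast library.

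Nfe2l2, which encodes NRF2, had 4567 reads and 97.6 RPKM in the SKP library against 2218 reads and 48.8 RPKM in the fibroblast library, a ratio of 2.00 (1.90 to 2.11). It lay exactly at the 2-fold limit, so its call turned on the scaling of the libraries: the log2 ratio was 0.98 with TMM factors, which is under the limit. Keap1, which encodes the adaptor that targets NRF2 for degradation, stood at 15.1 RPKM in SKPs and 12.5 in fibroblasts and was 1.21-fold higher (1.11 to 1.31). The level of Nfe2l2 relative to Keap1 was 6.44 in the SKP library and 3.90 in the fibroblast library.

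The antioxidant response element was searched by its core letters TGACNNNGC on both strands in the 250 bases before each start site, with promoters from RefSeq on GRCm38.p6, a later build than the mm9 of the deposited files. RefSeq entries were matched for 46 of the 53 genes, with 60 promoters, of which 9 held the core (15.0%), against 3338 of 32851 promoters in the whole table (10.2%). Among expressed genes alone the share was 15.1% of the members' promoters and 11.9% of all promoters. Promoters of a called higher gene, a called lower gene and an abundant uncalled gene that hold the core are shown, with that of a called higher gene whose window does not. They are Nfe2l2 (chr2:75704664-75704913, minus strand), Gclm (chr3:122245307-122245556, plus strand), Prdx1 (chr4:116685349-116685598, plus strand) and Srxn1 (chr2:152105274-152105523, plus strand). Capitals mark the core, which reads GCNNNGTCA where it lies on the opposite strand.
Nfe2l2: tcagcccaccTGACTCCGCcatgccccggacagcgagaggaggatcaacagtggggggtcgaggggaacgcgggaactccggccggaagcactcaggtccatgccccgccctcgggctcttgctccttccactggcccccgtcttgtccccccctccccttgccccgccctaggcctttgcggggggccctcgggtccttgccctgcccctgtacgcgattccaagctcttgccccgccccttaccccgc
Gclm: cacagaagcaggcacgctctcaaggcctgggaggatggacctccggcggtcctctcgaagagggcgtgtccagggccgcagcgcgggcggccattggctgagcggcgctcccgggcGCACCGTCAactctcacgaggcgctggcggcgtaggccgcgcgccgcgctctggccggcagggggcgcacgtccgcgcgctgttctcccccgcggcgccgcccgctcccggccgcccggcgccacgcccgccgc
Prdx1: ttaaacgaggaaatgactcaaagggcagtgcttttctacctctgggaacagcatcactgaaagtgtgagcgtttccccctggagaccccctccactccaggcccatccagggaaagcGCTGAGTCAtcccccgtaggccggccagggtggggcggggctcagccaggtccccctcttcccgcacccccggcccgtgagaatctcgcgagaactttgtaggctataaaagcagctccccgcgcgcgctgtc
Srxn1: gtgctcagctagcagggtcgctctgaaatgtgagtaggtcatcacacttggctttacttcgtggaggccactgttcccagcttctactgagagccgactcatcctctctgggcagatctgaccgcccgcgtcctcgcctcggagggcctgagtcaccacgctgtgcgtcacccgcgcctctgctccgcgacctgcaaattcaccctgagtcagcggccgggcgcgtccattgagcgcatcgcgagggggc
The core lay 240 to 232 bases before the start of Nfe2l2, 134 to 126 bases before that of Gclm and 133 to 125 bases before that of Prdx1. Letters of AP-1 sites can overlap it and were not searched. The Srxn1 window holds the letters tgagtcagc, which differ from the core at 1 base. A match is a description of the letters and not a site of binding, and a window without one says nothing of the factor. Of the 8 expressed members with the core, 1 was called higher in SKPs, 1 was called lower and 6 were uncalled. Over all expressed genes 18.5% were called, and 8 genes are too few to set against that share. Promoters were matched for only 3 of the 4 genes called higher and 3 of the 5 called lower. Sod3, Gsr and Gsta4 had no entry, and neither did Hmox1 and Gclc.

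Genes long used as readouts of NRF2 lay on both sides of equality. Nqo1, a quinone reductase, stood at 11.9 RPKM in SKPs against 6.44 in fibroblasts, 1.84-fold higher (1.54 to 2.21) and under the limit for a call. Hmox1, the haem oxygenase that breaks haem down to biliverdin, stood at 125 RPKM in SKPs against 224 in fibroblasts, 1.78-fold lower in the SKP library (1.71 to 1.85) and also uncalled. Srxn1 encodes sulfiredoxin, which repairs over-oxidised peroxiredoxins. It had 2304 reads and 43.0 RPKM in the SKP library against 997 reads and 19.2 RPKM in the fibroblast library, and was 2.24-fold higher (2.08 to 2.42). Txnrd1, another known target, was at 34.3 RPKM in SKPs and 37.7 in fibroblasts. Gclm, the modifier subunit of glutamate-cysteine ligase, was lower in the SKP library, as given below.

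**Figure D2:**
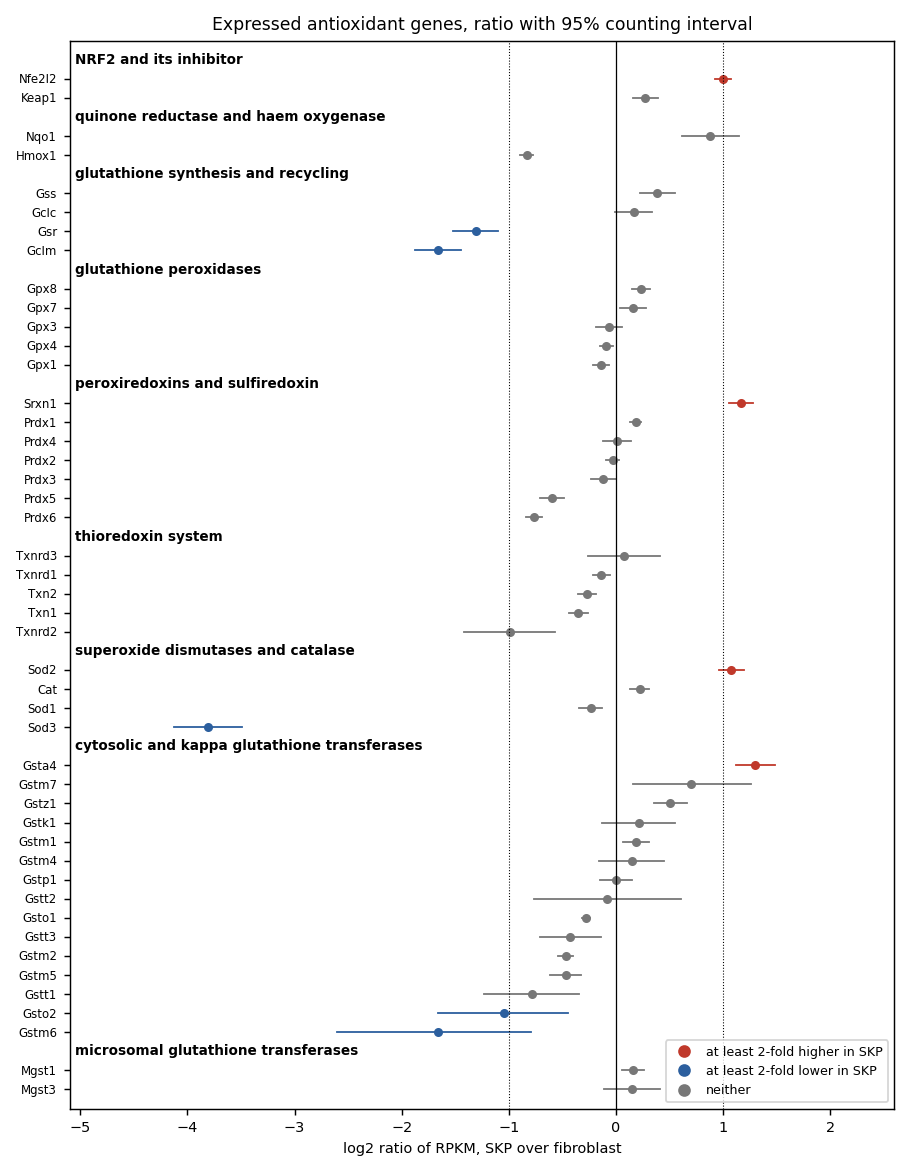
Log2 ratio of SKP over fibroblast RPKM of each expressed gene by family, with its 95% exact counting interval as a line. Dotted lines mark the 2-fold limits, red marks the 4 genes called higher in the SKP library, blue the 5 called lower and grey the other 37.

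The genes of glutathione synthesis and recycling divided. Gclm had 240 reads and 8.62 RPKM in the SKP library against 737 reads and 27.2 RPKM in the fibroblast library, and was 3.16-fold lower in the SKP library (2.73 to 3.67). Gclc, the catalytic subunit that works with it, stood at 9.20 RPKM in SKPs and 8.21 in fibroblasts, and its interval included equality (ratio 1.12, 0.995 to 1.26). The RPKM of the 2 subunit genes were thus near parity in the SKP library, with a Gclc level 1.07 times that of Gclm. In fibroblasts the Gclc level was 0.301 times that of Gclm. These ratios of RNA rest on the deposited gene lengths, and protein was not measured. Gss, glutathione synthetase, which adds glycine, was at 20.8 RPKM in SKPs and 15.9 in fibroblasts (ratio 1.31, 1.17 to 1.46). Gsr, glutathione reductase, had 267 reads and 5.23 RPKM in the SKP library against 641 reads and 12.9 RPKM in the fibroblast library and was 2.47-fold lower in the SKP library (2.14 to 2.86). Gclm and Gsr were thus called lower while Gclc and Gss were uncalled, although the interval of Gss did not include equality.

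The superoxide dismutases of different compartments did not share a direction. Sod3, the secreted enzyme that binds the extracellular matrix, had 90 reads and 2.32 RPKM in the SKP library against 1221 reads and 32.4 RPKM in the fibroblast library. It was 14.0-fold lower in the SKP library (11.3 to 17.5), the largest difference among the members, and only 60 of the 12053 expressed genes had a lower ratio. Sod2, the manganese enzyme of mitochondria, went the other way, with 1833 reads and 25.3 RPKM in SKPs against 843 reads and 12.0 RPKM in fibroblasts (2.11-fold higher, 1.95 to 2.29). Sod1, the copper and zinc enzyme of the cytosol, was the most abundant in both libraries, at 114 RPKM in SKPs and 134 in fibroblasts (1.18-fold lower in the SKP library, 1.10 to 1.27). The level of Sod2 was 10.9 times that of Sod3 in the SKP library and 0.369 times that of Sod3 in the fibroblast library. Cat, the peroxisomal catalase, stood at 46.4 RPKM in SKPs and 39.8 in fibroblasts (ratio 1.17, 1.10 to 1.24).

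**Figure D3:**
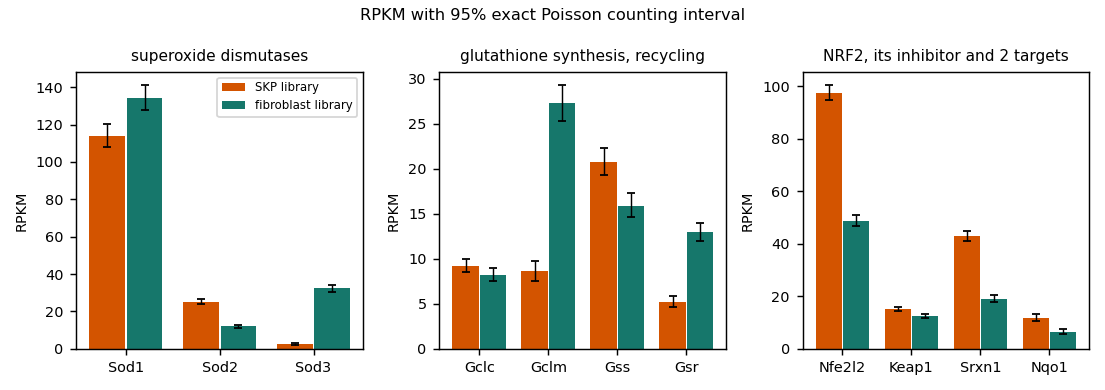
RPKM of the superoxide dismutases, the glutathione synthesis and recycling genes, and Nfe2l2 with Keap1, Srxn1 and Nqo1, with bars from 0, the SKP library left of the fibroblast library, and 95% exact Poisson counting intervals as error bars. Sod2 and Sod3 differ in opposite directions, and Gclm and Gsr are lower in the SKP library while Gclc and Gss are not.

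Glutathione peroxidases, which reduce hydrogen peroxide and lipid peroxides, stood at nearly equal levels. Within 1.5-fold were 5 of 5 expressed members, against 66.7% of all expressed genes, and 5 genes are too few to tell apart from that share. Gpx4, which reduces phospholipid peroxides and protects cells from ferroptosis, stood at 242 RPKM in SKPs and 258 in fibroblasts (ratio 0.940, 0.903 to 0.979). Gpx1, the cytosolic and mitochondrial form, was at 138 RPKM in SKPs and 152 in fibroblasts, and Gpx3, the secreted form, at 38.2 and 39.9. Gpx8 and Gpx7, which lie in the endoplasmic reticulum and use cysteine in place of selenocysteine, were at 134 and 53.6 RPKM in SKPs against 114 and 48.0 in fibroblasts. Gpx2, known from the gut epithelium, had 7 reads in SKPs and 0 in fibroblasts and was not expressed by the rule. The summed level of the family was 607 RPKM in SKPs and 612 in fibroblasts, and the order of its expressed members was the same in both libraries.

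Of 6 peroxiredoxins, thiol peroxidases that turn over peroxide quickly, 0 were called, against 18.5% of all expressed genes, which 6 genes are too few to tell apart from. The cytosolic Prdx1 (ratio 1.14, 1.10 to 1.18) and Prdx2 (0.978, 0.936 to 1.02), the mitochondrial Prdx3 (0.922, 0.851 to 0.997) and Prdx4 of the endoplasmic reticulum (1.00, 0.918 to 1.10) were close to equality. Lower in the SKP library but under the limit were Prdx5, at 83.8 RPKM in SKPs against 127 in fibroblasts (1.51-fold, 1.40 to 1.63), and Prdx6, at 53.9 against 91.3 (1.70-fold, 1.61 to 1.79). Prdx6 is the member with a single catalytic cysteine that uses glutathione. The level of Srxn1 was 0.173 times that of Prdx1 in the SKP library and 0.0874 times in the fibroblast library.

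Of the 5 thioredoxin and thioredoxin reductase genes 0 were called, against 18.5% of all expressed genes, and again the genes are few. Txn1, the cytosolic thioredoxin, stood at 90.4 RPKM in SKPs against 115 in fibroblasts, and Txn2, the mitochondrial one, at 87.4 against 105. Txnrd2, the mitochondrial reductase, fell just short of a call at 1.98 RPKM in SKPs against 3.93 in fibroblasts, 1.99-fold lower in the SKP library (1.48 to 2.68) from 72 and 139 reads, and its log2 ratio was -1.01 with TMM factors, which is past the limit. Txnrd3 was at 2.90 RPKM in SKPs and 2.76 in fibroblasts. Of 4 members of the mitochondrial matrix, Sod2 was higher in the SKP library, while Prdx3, Txn2 and Txnrd2 had ratios below 1 and were uncalled.

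Of the 20 glutathione transferase genes of the cytosolic and kappa classes, which join glutathione to reactive compounds, 15 were expressed. Among them 1 was called higher in SKPs, 2 were called lower and 12 were uncalled, a number of calls near the 18.5% of all expressed genes. Gsta4, an alpha-class enzyme that detoxifies the lipid aldehyde 4-hydroxynonenal, had 863 reads and 47.0 RPKM in the SKP library against 340 reads and 19.0 RPKM in the fibroblast library (2.47-fold higher, 2.17 to 2.80). The other alpha genes were nearly silent, with 7 reads in SKPs and 1 in fibroblasts for Gsta3, 2 and 0 for Gsta2, and 1 and 0 for Gsta1. Gsto2, an omega-class gene that neighbours Gsto1 in the genome, had 36 reads in SKPs and 72 in fibroblasts and just reached a call at 2.06-fold lower in the SKP library (1.36 to 3.16). Gsto1 itself differed by 1.21-fold in the same direction (1.18 to 1.24) and supplied 56.4% of the summed transferase RPKM in SKPs and 59.2% in fibroblasts.

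The 7 mu-class genes form a run in the RefSeq gene table with no other protein-coding gene between them, in the order Gstm5, Gstm7, Gstm6, Gstm3, Gstm2, Gstm1 and Gstm4. Their ratios did not share a direction. Gstm2, the most abundant, was at 132 RPKM in SKPs and 183 in fibroblasts (1.38-fold lower, 1.32 to 1.45), and Gstm5 was at 37.6 and 52.1 (1.38-fold lower, 1.25 to 1.54). Gstm1 was at 48.6 RPKM in SKPs and 42.7 in fibroblasts (ratio 1.14, 1.05 to 1.24), Gstm4 at 6.14 and 5.55, and Gstm7 at 3.03 and 1.87 (ratio 1.63, 1.11 to 2.40). Gstm6 had 15 reads in SKPs and 46 in fibroblasts, 3.16-fold lower in the SKP library (1.73 to 6.09), and it passed the expression filter through the fibroblast library alone. Gstm3 had 1 read in SKPs and 0 in fibroblasts. The 3 theta-class genes had ratios below 1, of 0.581 for Gstt1 (0.426 to 0.788), 0.744 for Gstt3 (0.610 to 0.905) and 0.946 for Gstt2 (0.589 to 1.52), at 1.46 to 6.93 RPKM. Gstz1, the zeta-class enzyme of tyrosine breakdown, was at 21.6 RPKM in SKPs and 15.2 in fibroblasts (ratio 1.42, 1.28 to 1.59), and Gstk1, the kappa form, at 9.14 and 7.89.

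Several transferase genes are near copies of each other, which limits how their reads could be told apart. In transcripts of GENCODE release M21, 63.2% of the distinct stretches of 49 bases of Gstp1, the length of a read, also occur in Gstp2. Reads covered 41.67% of the length of Gstp1 in the SKP library and 42.07% in the fibroblast library, per the deposited coverage, whereas Gsto1, which shares no such stretch, was covered over 97.85% and 97.76%. Gstp1, a pi-class enzyme, was listed at 53.8 RPKM in SKPs and 53.7 in fibroblasts (ratio 1.00, 0.904 to 1.11), values that divide by the whole length, and Gstp2 had 4 reads in SKPs and 11 in fibroblasts. The part shared with another gene of the deposited tables was 11.2% for Gstm1, 6.97% for Gstm6 and 1.18% for Gstm2. With any other gene of GENCODE it was larger for some, and not among transferases alone. That part was 62.0% for Gpx4, 30.2% for Prdx1, 23.8% for Sod1, 26.0% for Gstt3 and 23.6% for Gstm1, and its effect on their counts was not tested. For Gstm5 the part shared with a deposited gene was 14.5%, all of it with 4933431E20Rik, which is not named as a transferase. Of the called genes, Gstm6 and Sod2 (1.48%) shared such stretches with another gene of the deposited tables, and the other 7 shared none. Low coverage was not only found there, since Prdx6 (65.0% in SKPs, 63.45% in fibroblasts) and Txn1 (62.51% and 64.32%) share none with a deposited gene.

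The microsomal transferases, membrane enzymes of a separate origin, were alike in the libraries. Mgst1 was at 88.0 RPKM in SKPs and 78.9 in fibroblasts (ratio 1.12, 1.04 to 1.20), Mgst3 at 21.3 and 19.2 (1.11, 0.924 to 1.33), and Mgst2 had 7 reads in SKPs and 3 in fibroblasts. Not expressed by the rule were thus Gpx2, Gsta1, Gsta2, Gsta3, Gstm3, Gstp2 and Mgst2, with at most 7 reads in SKPs and 11 in fibroblasts. They hold too few reads for a ratio to be read.

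Around these enzymes, genes that supply cysteine or break glutathione down included calls in both directions. Of 13 expressed genes of glutathione supply and turnover, 4 were called higher in SKPs, 4 were called lower and 5 were uncalled, and the median log2 ratio was 0.13. Over all expressed genes 12.1% were called higher and 6.41% lower. Slc1a1, a glutamate and cysteine transporter, was at 3.53 RPKM in SKPs against 0.0733 in fibroblasts, where it had 5 reads (48.2-fold higher, 20.4 to 150). Slc7a11, the cystine importer of system xc-, was 3.90-fold higher (3.39 to 4.50) at 5.67 RPKM in SKPs against 1.45 in fibroblasts, while its partner Slc3a2 was at 86.0 and 106. Anpep, an aminopeptidase that can cleave cysteinyl-glycine, was 6.86-fold higher (6.44 to 7.31), and Ggt5, a gamma-glutamyl cleaving enzyme of the cell surface, 9.45-fold (6.48 to 14.3). Lower in the SKP library were Chac1, which degrades glutathione inside the cell (3.33-fold, 2.94 to 3.78), the cystathionine lyase gene Cth (2.14-fold, 1.80 to 2.56), Ggt7 (2.17-fold) and Ggct (7.21-fold, from 4 SKP and 28 fibroblast reads). Slc1a1, Ggt5 and Ggct passed the filter through 1 library alone and so had to differ. Keratinocyte, leukocyte and adipocyte markers were higher in the same library as Slc7a11, Anpep and Ggt5, and their part was not tested.

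Of 12 expressed genes in a list of other NRF2 targets, 3 were called higher in SKPs, 2 were called lower and 7 were uncalled. Of all expressed genes 12.1% were higher and 6.41% lower, and the median log2 ratio of the list was 0.37. Genes placed in the other lists, such as Slc7a11, Sqstm1 and Pgd, were not counted here, so these numbers hold for this list only. Higher were the biliverdin reductase gene Blvrb (52.4 RPKM in SKPs against 21.7 in fibroblasts, 2.42-fold, 2.13 to 2.75), Osgin1 (2.26-fold) and the glucuronosyl transferase gene Ugt1a6a (2.25-fold), which shares exons with its Ugt1a neighbours. Lower were the epoxide hydrolase gene Ephx1 (63.9 RPKM in SKPs against 170 in fibroblasts, 2.66-fold, 2.53 to 2.80) and the haem transporter gene Slc48a1 (2.24-fold). The ferritin genes were uncalled, with Fth1 at 1421 RPKM in SKPs and 869 in fibroblasts and Ftl1 at 2434 and 2920.3. Among 10 expressed partners and repressors of NRF2 the 1 called gene was Bach2, a repressor of the same elements, 3.14-fold higher (2.31 to 4.32) at 1.12 RPKM in SKPs against 0.358 in fibroblasts. It passed the filter through the SKP library alone. The related factor gene Nfe2l1 was at 64.8 RPKM in SKPs and 85.6 in fibroblasts, and the autophagy receptor gene Sqstm1, which binds KEAP1, at 284 and 237.

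Enzymes that use glutathione outside the named families had 3 of 12 expressed genes higher in the SKP library and 0 lower, against 12.1% and 6.41% of all expressed genes. Ptges, a prostaglandin E synthase, was at 141 RPKM in SKPs against 16.4 in fibroblasts (8.60-fold higher, 8.08 to 9.16). Glrx, the cytosolic glutaredoxin that removes glutathione from proteins, was at 58.8 RPKM against 16.7 (3.52-fold higher, 3.16 to 3.94). Ltc4s, the leukotriene C4 synthase gene of mast cells and other leukocytes, had 28 reads in SKPs and 2 in fibroblasts and passed the filter through SKPs alone. The mast cell and leukocyte markers above were higher in the same library, and their part was not tested. Esd, which frees glutathione in formaldehyde breakdown, was the most abundant uncalled gene of the list at 115 RPKM in SKPs and 101 in fibroblasts.

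Of 12 thioredoxin partners and related reductases, 2 were higher, 2 lower and 8 neither, against 12.1% higher and 6.41% lower of all expressed genes. Txnip, which binds and inhibits thioredoxin, was at 103 RPKM in SKPs against 38.5 in fibroblasts (2.68-fold higher, 2.55 to 2.82), and Sesn3, a sestrin, at 22.5 against 4.51 (4.99-fold higher, 4.24 to 5.89). The methionine sulfoxide reductase genes Msrb3 (3.57-fold, 3.30 to 3.87) and Sepx1 (2.37-fold, 2.17 to 2.59) were lower in the SKP library, whereas their relatives Msra and Msrb2 were uncalled. The selenoprotein P gene Sepp1, which carries selenium between cells, was 7.63-fold higher (7.15 to 8.16) at 198 RPKM in SKPs against 25.9 in fibroblasts. The other 4 expressed genes of the selenoprotein list, in which Sepx1 was not counted, were uncalled. Among them was Sepw1 at 333 RPKM in SKPs and 196 in fibroblasts.

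Genes that supply NADPH and selenocysteine had no called gene, where 18.5% of all expressed genes were called, but with 10 and 8 genes the lists are short. Of 10 NADPH-forming and related genes 0 were called in either direction, with Idh1 at 58.4 RPKM in SKPs and 88.2 in fibroblasts and Pgd at 78.6 and 82.8. Of 8 genes of selenoprotein synthesis 0 were called and 8 were within 1.5-fold, against 66.7% of all expressed genes, with Trnau1ap at 13.4 RPKM in SKPs and 14.8 in fibroblasts and Sephs2 at 10.6 and 13.7. Among oxidant-producing enzymes 6 of 16 were expressed. Xdh, xanthine dehydrogenase, was 2.39-fold higher in SKPs (2.27 to 2.52), whereas Nox4, a hydrogen peroxide producing oxidase of fibroblasts, was 3.14-fold lower (2.54 to 3.90) at 1.76 RPKM in SKPs against 5.54 in fibroblasts. Maob, a monoamine oxidase, was also lower (3.46-fold). Cyba, the shared oxidase subunit, was uncalled at 78.7 RPKM in SKPs and 106 in fibroblasts, and Cybb, the phagocyte oxidase gene, had 49 reads in SKPs and 0 in fibroblasts, beside the higher leukocyte markers, whose part was not tested.

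**Figure D4:**
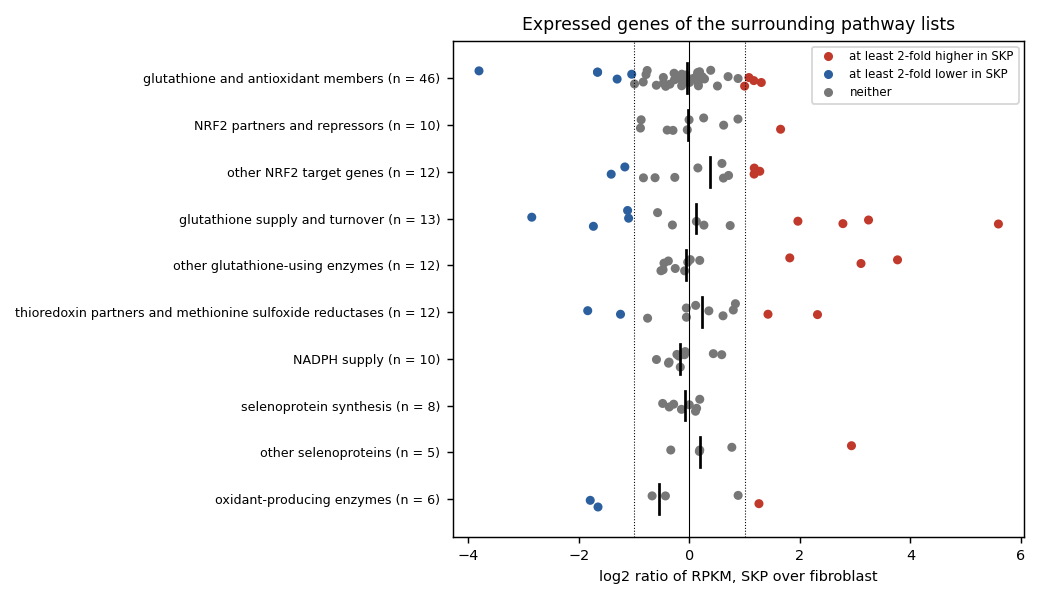
Log2 ratio of SKP over fibroblast RPKM of each expressed gene in the antioxidant set and in 9 lists of the surrounding pathway, with the list median as a black bar and the 2-fold limits as dotted lines. Red marks genes called higher in the SKP library and blue those called lower, and points are spread vertically for legibility. NADPH supply and selenoprotein synthesis lie between the limits, while glutathione supply and turnover runs from -1.73 (Chac1) to 2.78 (Anpep) among genes expressed in both libraries, with Ggct, Ggt5 and Slc1a1, which passed the filter in 1 library, farther out.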

How the data were processed

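Reads were 49 bases long. The mapping tables deposited by the authors give reads and the percent of total reads per class, with 2 mismatches at most per their class names. The authors' count per gene is a raw whole number that the file headers call unique reads, and the sums, 18949264 for SKPs and 18406244 for fibroblasts, exceed the single-match reads, 14578907 and 14481657, so how reads at several positions were counted was not settled. The deposited RPKM scales that count by gene length and library total. The deposited coverage is the percent of gene length under reads. A table of the authors' comparison holds, per gene, the log2 fibroblast over SKP ratio, a p-value and an FDR from an unnamed test. Per the submitters' processing notes the build was mm9. For aligner, counter, annotation and strandedness the sources used here give nothing, so overlapping and antisense genes could not be separated.

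Ratios are SKP over fibroblast RPKM, with 95% exact (Clopper-Pearson) counting intervals from the reads. A gene with 0 reads was set against a floor of 3 reads. Intervals cover counting error only, since each group had 1 library. PCR copies of 1 molecule are counted separately, which can make the intervals too narrow. With 1 library per group no test was possible. Values were computed in Python 3.11.15 (pandas 2.3.3, numpy 2.4.6, scipy 1.17.1, matplotlib 3.10.9), and TMM factors for an alternative scaling with edgeR 4.0.16. The calling rule was also run on simulated counts without spread between cultures. The changes planted there were well past the limit and in genes with many reads. Calls near the limit or on few reads were thus not checked by it. Shared stretches came from GENCODE M21 transcripts, on either strand, for the protein-coding transcript nearest in length to the deposited gene length. The members and lists were chosen with earlier results of these data known. Every member is named. Of each surrounding list the rule named called genes with the 4 largest ratios and the 2 expressed genes of highest RPKM, and others named where a count held 5 or fewer, or among uncalled genes, were chosen after their values were seen. In the lists, 7 symbols had no row with a read.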

Additional observations from a re-analysis of the deposited data

How the results depend on the processing

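The median log2 ratio of the expressed members stayed between -0.09 and -0.01 under log2(RPKM + 1), no filter, RPKM of at least 5, 3 scalings, no Gsta, Gstm, Gstp and Gstt genes, and the authors' deposited log2 ratio. The count of genes lower in the SKP library, 5 as reported, was 3 on the log2(RPKM + 1) scale and 3 at RPKM of at least 5. With a 1.5-fold limit 10 were lower and 6 higher, and with a 3-fold limit 3 were lower and 0 higher. Under the other alternatives 4 to 6 were lower and 3 to 5 higher. Of 351 values of single genes under the alternatives, 344 kept their call, 5 lost one (Nfe2l2 in 3, Gstm6 and Gsto2 in 1 each on the log2(RPKM + 1) scale) and 2 gained one (Txnrd2 under TMM and upper-quartile scaling). The other filters, the omission of transferases and the authors' ratio left the ratio of each gene they kept unchanged. Calls of single genes could thus change only on the log2(RPKM + 1) scale and under the 3 scalings, and the share kept overstates the stability. The scalings moved all ratios by at most 0.05 on the log2 scale, enough to turn the sign of Gstp1 and Prdx4, which lay near 0. No paired analysis was possible because each cell type had 1 library, and leaving out a library was not possible either. For all expressed genes the 1.5-fold limit gave 2255 higher and 1716 lower, against 1455 and 772 at 2-fold, and the 3-fold limit 938 and 367. Depth limits Gstm6, Gstm7, Gsto2 and Gstt2, whose few reads gave wide intervals.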
